A study of Solanum lycopersicum with 24 samples.

Results

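Sucrose is cleaved or moved by the products of the 8 tomato genes described here, which are 2 sucrose synthases, 4 cell wall invertases, 1 vacuolar invertase and the sucrose transporter SUT1. They were chosen by locus number, with no cut on a measured value but with earlier results of these data known. They are 8 of the 34725 gene models counted. Transcripts were sequenced from glandular cells of type VI leaf trichomes, gland hairs of cultivated tomato (Solanum lycopersicum). The genotypes were the af mutant and its complemented lines CHI4 and CHI9, each collected at 4 sampling times shared by the genotypes, which gave 12 libraries. All plants were 5 weeks old and grew in soil in a growth chamber at 28 °C and 250 µE of light.

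The labels give neither the affected gene, nor the promoter of the transgene, nor whether CHI4 and CHI9 descend from separate transformants, nor how many plants went into a collection. That af lacks a working chalcone isomerase (CHI1), an early enzyme of flavonoid synthesis, and that both lines carry the mutation plus a CHI1 transgene, is general knowledge. No wild type was part of the comparison. Differences between genotypes were set against the spread among the 4 collections of each genotype, which the series text calls independent.

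Gland cells receive sucrose from the leaf and convert it to terpenes, flavonoids and acylsugars. Cleavage opens the sugar to metabolism. Sucrose synthase splits sucrose reversibly in the cytosol into fructose and UDP-glucose, while invertases split it irreversibly into glucose and fructose, in the cell wall or in the vacuole. SUT1 is a plasma membrane sucrose/proton symporter known for phloem loading. The hexoses are then phosphorylated by hexokinases and fructokinases, and sucrose-phosphate synthase works in the opposite direction, towards sucrose.

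The libraries held 8.99 to 70.9 M gene counts (20.9 to 70.9 M in af, 34.0 to 52.0 in CHI4, 8.99 to 46.1 in CHI9). Levels are counts per M (CPM) scaled by TMM, which corrects for differences in library composition. They are not divided by transcript length, so they compare a gene between libraries and not genes with each other. CHI1 (Solyc05g010320) was lower in af, at 211 to 340 CPM (range of 4 libraries) against 418 to 1167 in the 8 line libraries (edgeR adjusted p = 7.76e-05), so no library went against its label. The tissue label was checked on NDPS1, TPS12 and MYC1, which mark type VI glands and had reads in every library. Their summed level was 3469.6 to 4604 CPM in af, 15773 to 21302 in CHI4 and 16124 to 19516 in CHI9. NDPS1 and TPS12 were lower in af, with log2 differences of -3.33 and -1.90 (edgeR adjusted p = 2.78e-10 and 8.09e-08). MYC1, a regulator of these glands, was not called, at 677 ± 98.5 CPM for af (SD, n = 4) and 684 ± 55.8 for the line libraries (SD, n = 8), with a log2 difference of -0.013 (SE 0.129, edgeR adjusted p = 0.956). Rubisco small subunits were listed as markers of green leaf cells, but whether gland cells themselves hold these transcripts was not tested. The Rubisco genes summed to 227 to 306 CPM in af, 334 to 422 in CHI4 and 349.8 to 394 in CHI9, with 3 of 3 present in every library. Of these, 1 was called lower in af (Solyc02g063150, log2 difference -1.86), while the most abundant, Solyc03g034220, had -0.20 (edgeR adjusted p = 0.239) and Solyc02g085950 -1.29 (edgeR adjusted p = 0.0570). For the acyltransferases ASAT1, ASAT2 and ASAT3 of acylsugar tip cells the sums were 9.76 to 21.8, 53.1 to 78.0 and 41.1 to 50.3 CPM. ASAT1 was at 0 in af at times 3 and 4 and ASAT2 in af at time 3. ASAT3 made up most of the sum (mean of 13.2 CPM in af, against 0.581 for ASAT2 and 0.0345 for ASAT1). It was called lower in af (log2 difference -1.99, edgeR adjusted p = 1.24e-06). ASAT2 was not called (-1.60, edgeR adjusted p = 0.146), and ASAT1 had too few reads for a test. All 3 marker sums were lower in af than in any line library, though MYC1, ASAT2 and 2 of the 3 Rubisco genes were not called. The part of the markers in the values below was not tested. In such bulk samples fewer cells of a type and less RNA per cell cannot be told apart.

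The sucrose synthase SUS3 and the vacuolar invertase TIV1 carried nearly all the reads of the 8 genes in gland cells. Neither differed between af and the lines beyond the spread of libraries under TMM scaling. LIN6 was the cell wall invertase with reads in every library. Its sister genes LIN5, LIN7 and LIN8 were at or close to 0, and SUS1 and SUT1 had levels near 1 CPM. Enough reads for testing were present for 5 of the 8 genes, SUS1, SUS3, LIN6, TIV1 and SUT1, and 7 of the 8 had a read in some library.

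With af set against both lines together (the mean of the lines), 0 of these 5 genes passed edgeR's quasi-likelihood test (adjusted p under 0.05), where 26.5% of all 18326 tested genes did. At an unadjusted p under 0.05 the count was also 0, and DESeq2 and limma-voom called 0. Against CHI4 alone 0 of 5 were called with 19.8% of all genes called, and against CHI9 alone 0 of 5 with 20.5%. There the unadjusted count in edgeR was 0 for each line, and DESeq2 and limma-voom called 0. The unadjusted count against CHI4 was 1 in DESeq2 and 1 in edgeR with sampling time as a block. Against CHI9 both were 0. Both comparisons share the af libraries. The lowest adjusted p of the 5 genes was 0.261 against the mean of the lines, 0.212 against CHI4 and 0.234 against CHI9 (edgeR). With sampling time as a block in edgeR it was 0.129, 0.0924 and 0.218 in the same order. A value that misses the threshold does not show that levels were equal, and the intervals given with each gene say which differences the data allow.

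**Figure D1:**
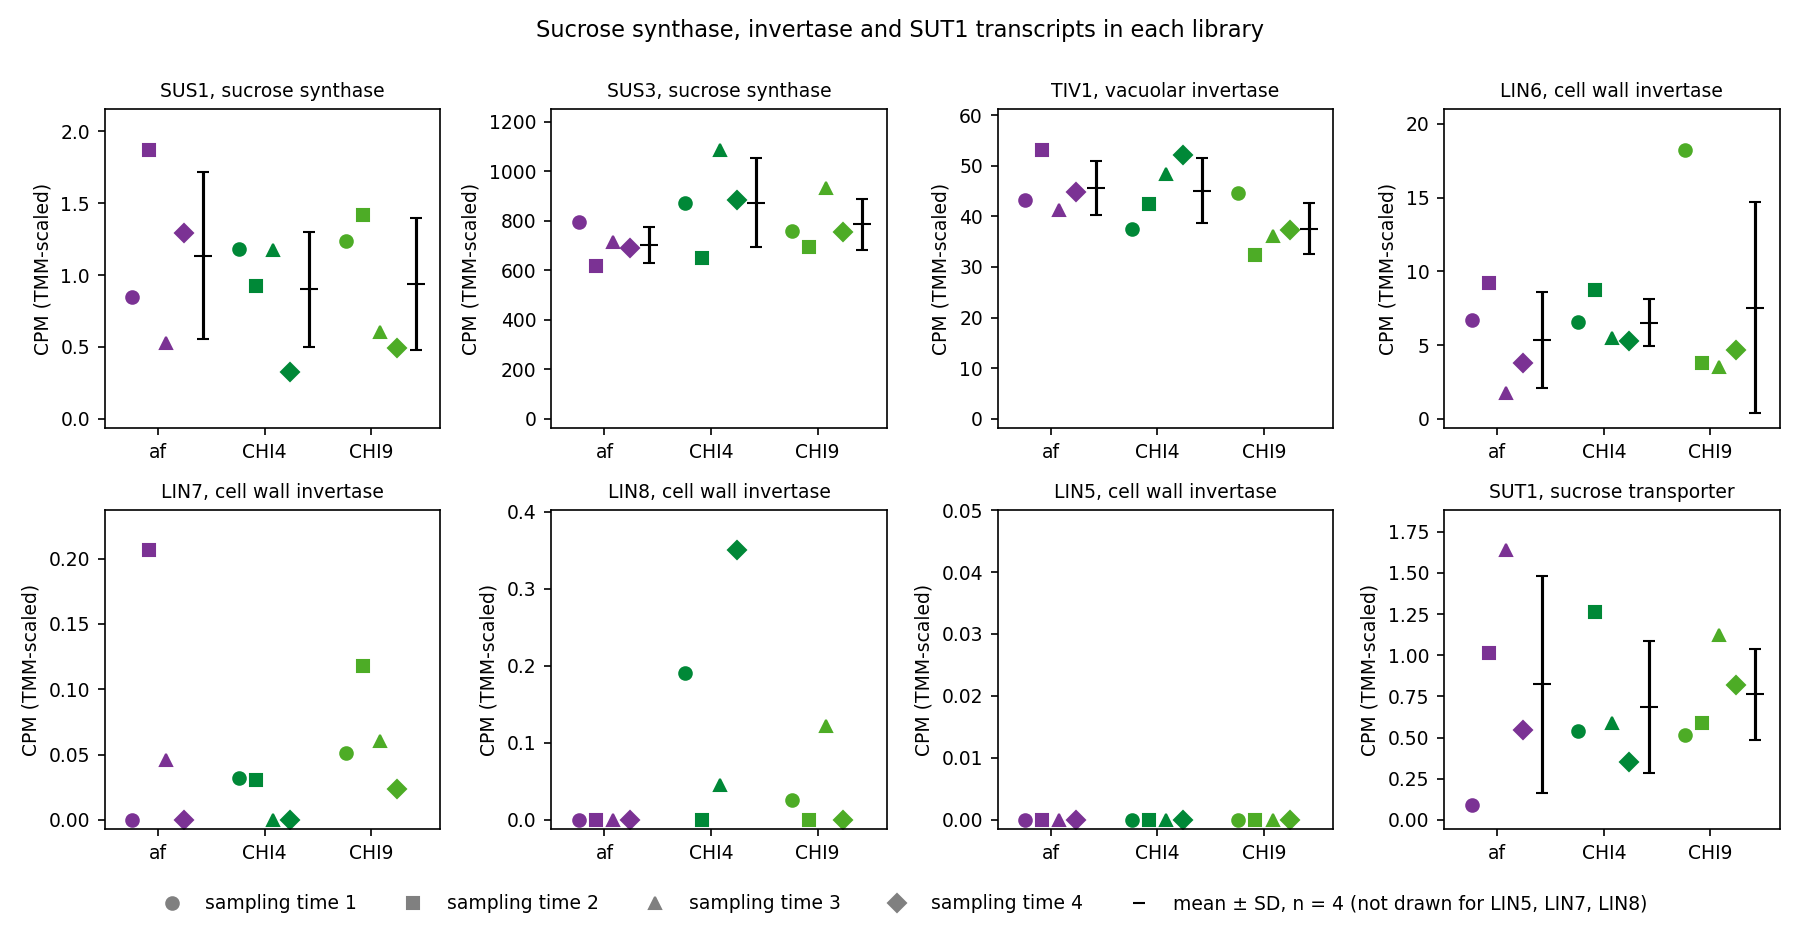
Level of each of the 8 genes in CPM scaled by TMM (linear vertical axes that differ between panels) in af, CHI4 and CHI9, 1 point per library with the symbol giving its sampling time, and the mean ± SD (n = 4) in black, left out for LIN5, LIN7 and LIN8. SUS3 lies between 619 and 1088 CPM in all 12 libraries, LIN6 has 1 high library at 18.3 CPM in CHI9, and LIN5 is at 0 throughout.

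SUS3 (Solyc07g042550, on chromosome 7) encodes a sucrose synthase, the enzyme type that feeds UDP-glucose to cell walls and fructose to glycolysis. In order of sampling time its level was 795, 619, 713 and 689.6 CPM in af. In CHI4 it was 872, 649, 1088 and 885 CPM, and in CHI9 759, 693, 934 and 755 CPM. The ranges of the 3 genotypes overlapped, with the highest value in CHI4 and the lowest in af. SUS3 was lower in af than in CHI4 at 4 of 4 times and lower than in CHI9 at 3 of 4. Means were 704 ± 72.8 CPM for af, 874 ± 179 for CHI4 and 785 ± 104 for CHI9 (SD, n = 4 each). The log2 difference of af from the mean of the lines was -0.23 (SE 0.147, 95% interval -0.54 to 0.07, edgeR adjusted p = 0.261), which did not exceed the spread between libraries. That spread includes shifts between sampling times that the genotypes share, since this fit held genotype only. Over 22 alternatives, a fit with sampling time as a block among them, SUS3 was called in 0 (adjusted p from 0.129 to 0.506).

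The direction of SUS3 rested on the scaling. TMM factors were 1.10 to 1.28 for af libraries and 0.853 to 0.988 for line libraries. With library totals in place of TMM, a setting chosen after seeing the data, the median gene moved by 0.42 on the log2 scale towards higher values in af. SUS3 then stood at 0.20 on that scale (edgeR adjusted p = 0.229), with unscaled means of 857 ± 103 CPM for af, 766 ± 126 for CHI4 and 729.7 ± 69.5 for CHI9 (SD, n = 4 each).

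SUS3 took most of the reads of the 8 genes. Of all counts on the 8 genes, 93.7% fell on SUS3 over the 12 libraries together, and 90.4% to 95.7% in single libraries. TIV1 took 5.23% of them over all libraries, and LIN6 0.809%. This is a share of reads, to which transcript length contributes. Sucrose genes outside the 8 are not in it, such as the sucrose synthase SUS4 with 13847 counts over all libraries, where TIV1 had 21731. All 8 genes together held 0.0922% ± 0.0103 of gene counts for af, 0.0813% ± 0.0125 for CHI4 and 0.0774% ± 0.00728 for CHI9 (SD, n = 4 each).

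SUS1 (Solyc12g009300, on chromosome 12), the other sucrose synthase of the set, was scarce in gland cells, with 12 to 118 counts per library. Its level in order of sampling time was 0.847, 1.87, 0.530 and 1.29 CPM in af. In CHI4 it was 1.18, 0.925, 1.17 and 0.325 CPM, and in CHI9 1.24, 1.42, 0.607 and 0.491 CPM. All 3 ranges overlapped, and no genotype was consistently high or low. Between af and the lines the log2 difference was 0.32 (SE 0.647, 95% interval -1.03 to 1.67, edgeR adjusted p = 0.767), an interval that spans large differences in either direction. Without af replicate 2 it was -0.04. SUS1 and SUS3 belong to 1 enzyme family, and how many reads fit both genes was not examined here.

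TIV1 (Solyc03g083910, on chromosome 3) encodes the acid invertase of the vacuole, which releases hexoses from stored sucrose and is known for setting the sugar composition of tomato fruit. In order of sampling time the level of TIV1 was 43.1, 53.2, 41.3 and 44.8 CPM in af. It was 37.5, 42.4, 48.3 and 52.0 CPM in CHI4 and 44.5, 32.4, 36.2 and 37.3 CPM in CHI9. The highest single value was in af at time 2 and the lowest in CHI9 at the same time, and all 3 ranges overlapped. TIV1 in af lay above CHI4 at 2 of 4 times and above CHI9 at 3 of 4. The means were 45.6 ± 5.25 CPM for af, 45.1 ± 6.42 for CHI4 and 37.6 ± 5.05 for CHI9 (SD, n = 4 each). Set against the lines, af had a log2 difference of 0.15 (SE 0.135, 95% interval -0.13 to 0.43, edgeR adjusted p = 0.464).

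This value also depended on the scaling. With library totals TIV1 was called higher in af, with a log2 difference of 0.58 (edgeR adjusted p = 0.00380, against 0.00380 to 0.825 over its 22 alternatives, of which this was the 1 that called it). Unscaled means of TIV1 were 55.8 ± 9.44 CPM for af, 39.7 ± 5.24 for CHI4 and 35.2 ± 6.10 for CHI9 (SD, n = 4 each). This setting moves all genes by about the shift of the median gene, 0.42. Taking that shift off returns about the TMM value by construction, so it is no separate check of the call.

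Cell wall invertases split sucrose outside the cell and are known in tomato for feeding sinks such as ovaries, fruits and pollen, and for responses to hormones and stress. Their 4 genes lie in 2 pairs of neighbours, LIN5 (Solyc09g010080) with LIN7 (Solyc09g010090) on chromosome 9 and LIN6 (Solyc10g083290) with LIN8 (Solyc10g083300) on chromosome 10. In RefSeq's gene table (assembly SLM_r2.1) there were 0 genes between the members of either pair. In gland cells the neighbours differed in their reads, with 3359 counts on LIN6 over the 12 libraries and 27 on LIN8. Reads that fit both copies of a pair could be placed wrongly or dropped, so the low counts are uncertain.

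LIN6 spread more widely over the libraries than SUS3 or TIV1. In order of sampling time its level was 6.73, 9.19, 1.77 and 3.80 CPM in af. It was 6.60, 8.76, 5.50 and 5.27 CPM in CHI4 and 18.3, 3.77, 3.49 and 4.65 CPM in CHI9. The first CHI9 library stood far above the other 11, and the lowest value was in af at time 3, so the genotypes overlapped. Means were 5.37 ± 3.26 CPM for af, 6.53 ± 1.59 for CHI4 and 7.55 ± 7.16 for CHI9 (SD, n = 4 each). For af against the lines the log2 difference was -0.39 (SE 0.465, 95% interval -1.37 to 0.60, edgeR adjusted p = 0.592). It was 0.08 without CHI9 replicate 1 and 0.05 with library totals, so no direction can be given.

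The remaining cell wall invertases had too few reads for a test. LIN5, known from tomato fruit as a determinant of sugar content, had 0 counts in all 12 libraries. A count of 0 allows a level of up to 0.0334 CPM where the library was deepest and 0.354 CPM where it was shallowest (3 counts each, for counting error only). These bounds take each count as independent. Among low counts of single lanes 61.4% to 71.8% were even, so the bounds may be too low. LIN7, known from stamens and pollen, had 23 counts over 8 libraries, of which 13 were in af at time 2 (0.206 CPM). LIN8 had 27 counts over 5 libraries. Of these, 22 were in CHI4, with 14 at time 4 (0.350 CPM) and 6 at time 1, and 5 were in CHI9. The 4 af libraries held 0 counts of LIN8, which allows up to 0.0334 to 0.118 CPM on the same terms. CHI4 at time 2, and CHI9 at times 2 and 4, held 0 as well, so absence was not particular to af.

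SUT1 (Solyc11g017010, on chromosome 11) had 5 to 71 counts per library. Its level in order of sampling time was 0.0891, 1.02, 1.64 and 0.548 CPM in af. In CHI4 it was 0.542, 1.26, 0.586 and 0.350 CPM, and in CHI9 0.515, 0.590, 1.12 and 0.818 CPM. The lowest and the highest value were both in af, around those of the lines. Set against the lines, af had a log2 difference of 0.18 (SE 0.776, 95% interval -1.44 to 1.80, edgeR adjusted p = 0.895). Its sign changed with the sampling time as a block (-0.16), with limma-voom (-0.66) and without af replicate 3 (-0.40), so SUT1 has no measured direction here.

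CHI9 and CHI4 were compared to see whether the complemented lines differ from each other. Of the 5 genes, 0 were called (edgeR; also 0 at an unadjusted p under 0.05 and 0 by DESeq2 and limma-voom), where 0.0928% of all tested genes were (17 genes, and 36 with sampling time as a block). The log2 difference of CHI9 from CHI4 was -0.15 for SUS3 (SE 0.168, 95% interval -0.50 to 0.20, edgeR adjusted p = 0.948) and -0.26 for TIV1 (SE 0.157, 95% interval -0.59 to 0.07, edgeR adjusted p = 0.890). For LIN6 it was 0.22 (SE 0.531, 95% interval -0.90 to 1.35), but -0.053 with sampling time as a block and -0.71 without CHI9 replicate 1. SUS1 and SUT1 had 0.03 (SE 0.766) and 0.16 (SE 0.909), whose signs also turned under other settings.

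**Figure D2:**
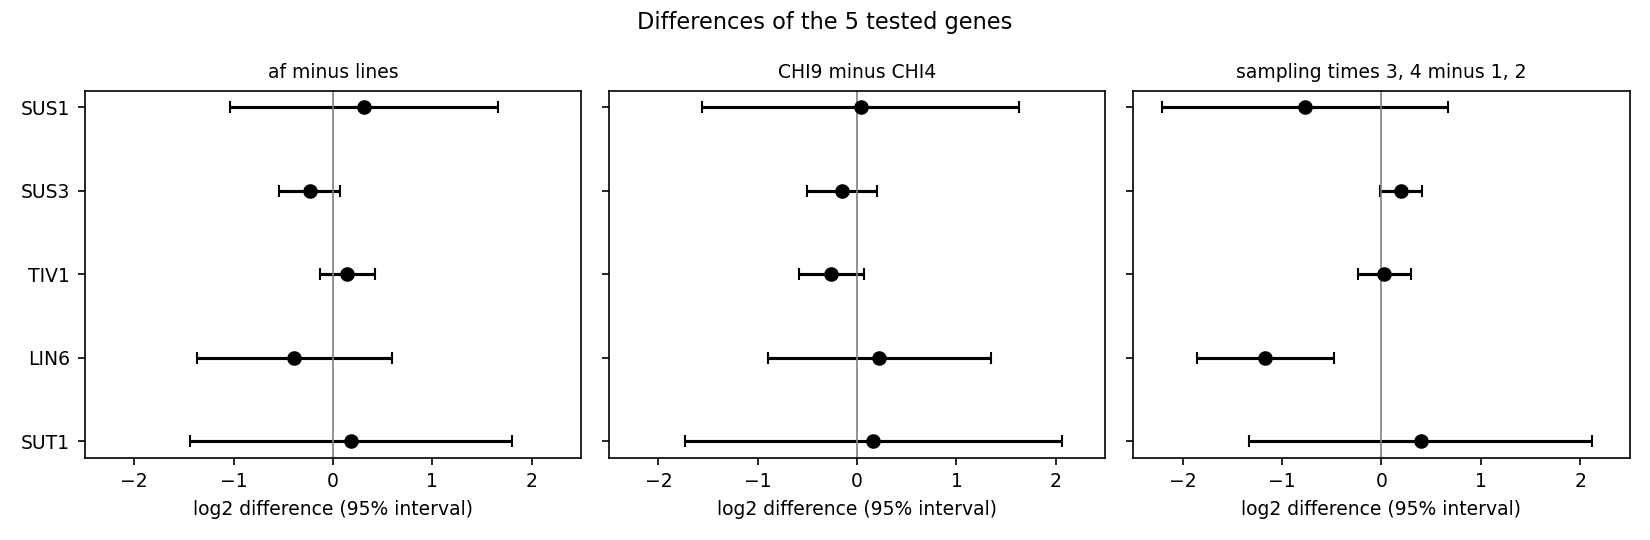
Log2 difference of the 5 tested genes with its 95% interval (horizontal axis, edgeR), for af against both lines together, CHI9 against CHI4, and sampling times 3 and 4 against 1 and 2. SUS3 and TIV1 have the narrowest intervals, and the interval of LIN6 between sampling times, from -1.86 to -0.48, is the only one of the 15 that leaves out 0.

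The genes differed in how steady they were. The SD of log2 CPM within a genotype was 0.187 for TIV1 and 0.223 for SUS3, against a median of 0.417 over all tested genes. A smaller SD than that of TIV1 was found in 8.57% of tested genes, and a smaller one than that of SUS3 in 16.0%. These shares rank genes of all levels together, scarce ones included. No ranking among genes of like level was made, so unusual steadiness is not shown. LIN6 had an SD of 0.886 and 79.1% of tested genes had a smaller one, and for SUS1 (0.712) and SUT1 (0.924) the shares were 71.5% and 80.6%. The last 2 genes have few counts, which adds counting error to their spread, whereas LIN6 had 32 to 710 counts per library.

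The labels number the sampling times 1 to 4, and the names of the deposited tables carry the dates 19 and 28 March for times 1 and 2 and 5 and 12 May for times 3 and 4. Times 3 and 4 were compared with times 1 and 2 at equal genotype. Of the 5 genes 0 passed edgeR, with 1 at an unadjusted p under 0.05, where 0.971% of all tested genes were called. DESeq2 and limma-voom each called 1, LIN6. With 2 collections a side, these p-values measure the spread of libraries and not that of collections.

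LIN6 was the gene with the widest difference relative to its error. Its mean over the 3 genotypes was 10.5 ± 6.70 CPM (SD, n = 3) at time 1, 7.24 ± 3.01 (SD, n = 3) at time 2, 3.59 ± 1.86 (SD, n = 3) at time 3 and 4.57 ± 0.738 (SD, n = 3) at time 4. Both early values lay above both late ones in af and in CHI4, and in CHI9 only the first did. The log2 difference of late from early times was -1.17 (SE 0.330, 95% interval -1.86 to -0.48, unadjusted p = 0.00204 and adjusted p = 0.0952 in edgeR), which missed the threshold. The adjusted p ran from 0.00319 to 0.365 over 21 alternatives, of which 4 called LIN6. These were the fit with no low-count filter (0.00319), DESeq2 (0.0255), limma-voom (0.0282) and edgeR without CHI4 replicate 1 (0.0190). Without CHI9 replicate 1, the library at 18.3 CPM, the log2 difference was -0.75 (adjusted p = 0.365). Whether the number, the date or another feature of the collections goes with LIN6 cannot be told apart.

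The other 4 tested genes were not called between periods by edgeR, DESeq2 or limma-voom. Late against early, SUS3 had a log2 difference of 0.20 (SE 0.101, 95% interval -0.01 to 0.41, edgeR adjusted p = 0.393) and TIV1 0.03 (SE 0.128, 95% interval -0.24 to 0.30, edgeR adjusted p = 0.949). Mean SUS3 over the genotypes was 809 ± 57.9, 654 ± 37.6, 912 ± 189 and 776 ± 99.5 CPM (SD, n = 3 each) at times 1 to 4. Time 2 was the lowest of the 4 in each genotype. SUS1 had -0.77 (SE 0.691, 95% interval -2.21 to 0.67) and SUT1 0.40 (SE 0.830, 95% interval -1.33 to 2.12), both with intervals that include 0.

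Within the early pair, time 2 against time 1, 0 of 5 were called in edgeR with 1 at an unadjusted p under 0.05, and 0 by DESeq2 and limma-voom, where 0.0873% of all tested genes were called in edgeR. Within the late pair, time 4 against time 3, 0 of 5 were called, with 0 at an unadjusted p under 0.05 and 0 by the other tools, against 1.21% of all tested genes. Whether the difference of af from the lines itself changed between the periods was tested as an interaction. There 0 of 5 were called, with 0 at an unadjusted p under 0.05 and 0 by DESeq2 and limma-voom, and 0% of all tested genes passed edgeR (24 did in DESeq2).

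**Figure D3:**
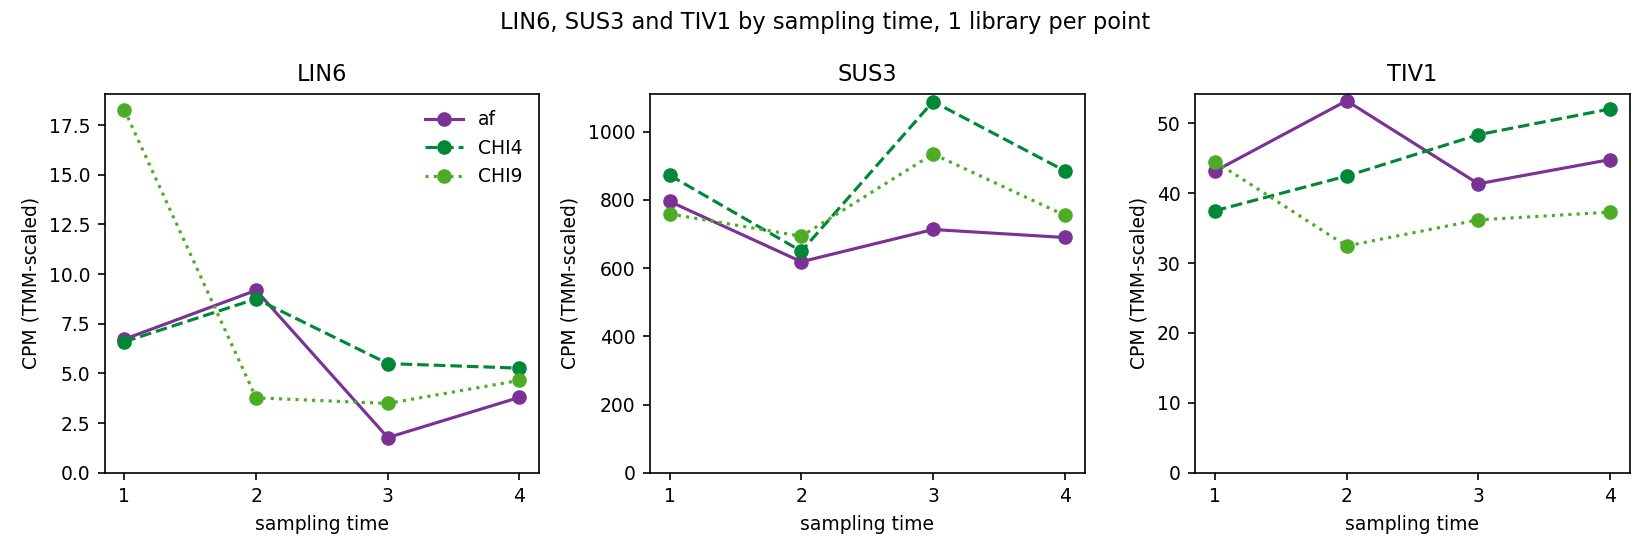
Level of SUS3, TIV1 and LIN6 in CPM scaled by TMM (vertical axes, from 0) at sampling times 1 to 4 (horizontal axis), with 1 point per library and a line for each of af, CHI4 and CHI9. SUS3 is lowest at time 2 in every genotype, and LIN6 is lower at times 3 and 4 than at times 1 and 2 in af and CHI4, with the CHI9 library of time 1 at 18.3 CPM.

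The patterns of SUS3 and TIV1 were set beside those of 11783 genes that averaged at least 5 CPM, by the root mean square difference of log2 CPM centred on its mean over the 12 libraries. Solyc07g064680 was nearest to SUS3, at 0.116 where the median gene was at 0.421. It had 107 ± 4.32 CPM for af, 127 ± 21.6 for CHI4 and 119 ± 26.2 for CHI9 (SD, n = 4 each). For TIV1 the nearest was Solyc02g091410, at 0.136 with a median of 0.416. Each was picked as the nearest of all, so its place below the median follows from the choice and shows no shared pattern. SUS3 and TIV1 lay 0.304 apart, and LIN6 lay 0.848 from SUS3 and 0.744 from TIV1.

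Another 22 genes of sucrose and hexose metabolism were listed from general knowledge, with earlier results of these data known. Of these, 16 had enough reads for a test. Some of them passed for af against both lines together, with 3 higher and 4 lower in af and 9 not called. The background over all tested genes was 12.9% higher and 13.6% lower. Against CHI4, 2 were higher and 3 lower (8.67% and 11.2% of all genes), and against CHI9, 1 higher and 3 lower (8.85% and 11.6%), which became 3 higher and 4 lower with sampling time as a block. Against CHI4 that block left 2 higher and 2 lower. The median log2 difference of the 16 from the mean of the lines was 0.24, with a range of -1.44 to 2.24, and that of all tested genes was 0.07. With library totals 4 were higher and 1 lower. Between CHI9 and CHI4, 0 of the 16 were called in edgeR, DESeq2 or limma-voom, with 0 at an unadjusted p under 0.05 in edgeR. Between late and early times 0 were called by any of these tools, with 2 at an unadjusted p under 0.05 in edgeR.

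The fructokinases FRK2 and FRK3, which phosphorylate the fructose that sucrose synthase and invertase release, were both lower in af. FRK2 (Solyc06g073190) had 55.8, 56.7, 55.5 and 51.3 CPM in af, 132, 148, 163 and 141 in CHI4 and 134, 179.6, 157 and 136 in CHI9. Every af library lay below every line library, with a log2 difference of -1.44 (SE 0.126, edgeR adjusted p = 1.12e-07), and FRK2 was called lower under all 22 alternatives, with -1.01 under library totals. FRK3 (Solyc02g091490) had 69.4, 62.0, 79.8 and 56.8 CPM in af, 116, 105, 101 and 128 in CHI4 and 69.0, 128, 115 and 103 in CHI9, where only the CHI9 library of time 1 lay within the range of af. Its log2 difference was -0.69 (SE 0.154, edgeR adjusted p = 0.00233), and -0.26 with library totals (adjusted p = 0.139).

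Another sucrose synthase, SUS4 (Solyc09g098590), was lower in af. Whether it differs from SUS1 and SUS3, which were not called, was not tested. SUS4 had 24.5, 19.4, 15.4 and 22.1 CPM in af, 30.8, 35.9, 42.2 and 20.3 in CHI4 and 25.3, 29.7, 49.0 and 35.7 in CHI9. The CHI4 library of time 4 overlapped the af libraries. The log2 difference was -0.72 (SE 0.206, edgeR adjusted p = 0.0130), with adjusted p = 0.0523 without af replicate 3 and -0.28 (adjusted p = 0.284) with library totals. The hexokinase HXK1 (Solyc03g121070) was lower in af by a margin that few settings kept, with a log2 difference of -0.45 (SE 0.165, edgeR adjusted p = 0.0475). Against CHI4 or CHI9 alone HXK1 was not called in the main fit (edgeR adjusted p = 0.125 and 0.0725). With af set against both lines it was called in 8 of 22 alternatives, whose adjusted p ran from 0.0205 to 0.933. The call was lost without any 1 of af replicates 2 to 4, CHI4 replicates 1 to 4 or CHI9 replicates 1 and 2 (adjusted p from 0.0597 to 0.168), and the value was -0.02 with library totals.

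Higher in af than in both lines together were SUT4, SPS and HXK4. SUT4 (Solyc04g076960), a sucrose transporter placed at the vacuolar membrane in other plants, had 5.12, 3.73, 2.40 and 9.21 CPM in af, 0.542, 2.28, 0.225 and 2.17 in CHI4 and 0.463, 1.53, 0.668 and 1.17 in CHI9. All af libraries lay above all line libraries, with a log2 difference of 2.21 (SE 0.541, edgeR adjusted p = 0.00469, and 0.0523 without af replicate 4). The interval of SUT1 ran from -1.44 to 1.80, and the difference between both transporters was not tested. The transporter SUT2 (Solyc05g007190) had a log2 difference of 0.26 (SE 0.171, edgeR adjusted p = 0.297), and 0.68 (adjusted p = 0.00290) with library totals.

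SPS (Solyc07g007790), a sucrose-phosphate synthase, had 16.1 ± 3.53 CPM for af, 5.94 ± 1.05 for CHI4 and 6.06 ± 4.58 for CHI9 (SD, n = 4 each). It lay above both lines at 4 of 4 times, with a log2 difference of 1.44 (SE 0.479, edgeR adjusted p = 0.0398). The call was lost, with adjusted p from 0.0525 to 0.0980, without any 1 of af replicates 1 to 4, CHI4 replicates 1 to 4 or CHI9 replicates 3 and 4, and with no low-count filter (0.0786). Against each line alone SPS was not called in the main fit (edgeR adjusted p = 0.103 for each). Its ranges overlapped, with CHI9 at time 2 (11.4 CPM) above af at time 1 (11.3 CPM). The hexokinase HXK4 (Solyc04g081400) had 11.6 ± 1.24 CPM for af, 6.32 ± 1.09 for CHI4 and 6.72 ± 2.88 for CHI9 (SD, n = 4 each). Its log2 difference was 0.84 (SE 0.250, edgeR adjusted p = 0.0170), with adjusted p = 0.0523 without af replicate 1 and 0.0652 without af replicate 2.

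**Figure D4:**
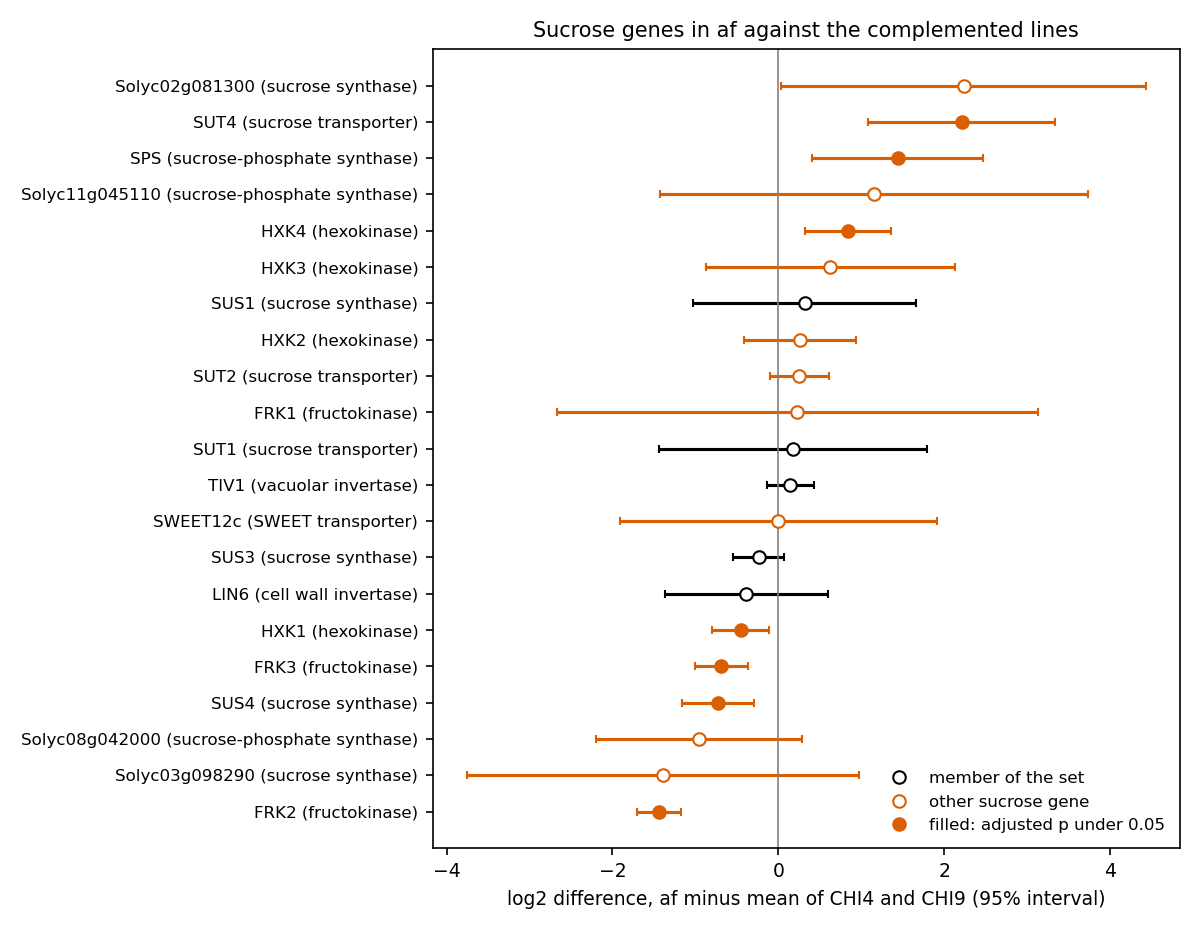
Log2 difference of af from the mean of CHI4 and CHI9 with its 95% interval (horizontal axis, edgeR, TMM scaling) for the 5 tested genes of the set (black) and the 16 other tested sucrose genes (orange), with filled points for genes called at an adjusted p under 0.05. The 5 black intervals include 0, and the 7 filled points are SUT4, SPS and HXK4 on the right and FRK2, SUS4, FRK3 and HXK1 on the left.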

How the data were processed

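TruSeq libraries were prepared from RNeasy-extracted total RNA of gland cells, per the labels' protocols. The deposited tables hold raw counts per gene model, made by the authors with Trimmomatic, TopHat2, SAMtools and HTSeq, per the submitters' processing notes. Not given in the sources used here are versions, genome build, annotation and strand setting. Reads of overlapping or antisense genes therefore cannot be told apart, and whether a count is a read or a read pair is not recorded. Even values made up 61.4% to 71.8% of low counts in single lanes (median 68.6%). Whether reads of a pair were counted separately was not tested.

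The 2 lanes of each library were summed (24 tables, 12 libraries), and 5 summary entries that name no gene were left out. As a share of all entries, 4.68% to 7.56% of reads had several alignments, 8.49% to 12.2% lay in no gene and 3.67% to 6.68% were ambiguous. In af replicate 4 the second lane held 0.450 counts per count of the first, against 0.982 to 1.00 elsewhere.

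The main test was edgeR 4.0.16 in R 4.3.3 on the summed counts (filterByExpr, TMM, robust quasi-likelihood fit of 3 genotypes, Benjamini-Hochberg over 18326 genes, threshold 0.05). Sampling times were added as additive terms to compare times. SE is the log2 difference over the root of F. DESeq2 1.42.0, limma-voom (limma 3.58.1), other scaling, filters, lanes, halved counts and left-out libraries were alternatives. The edgeR script was tested on simulated data.

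Sampling times pair the samples, per the labels. Deviations from genotype means correlated at -0.0610 to 0.162 within a time (median 0.0889, 5 of 12 pairs over 0.1) and had a median of -0.0300 between times.

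Gene names come from general knowledge. RefSeq's table of 41476 genes matched 0 loci by identifier. By symbol or synonym it matched 8 of 8 members and 14 of 22 others on the chromosome of the locus number. SUS1, LIN6, TIV1 and SUT1 matched by a synonym only. All 8 genes are named, with those of the 22 called for af against both lines together (SUT2 beside them), and the nearest gene in pattern to the most abundant pair. CHI1 was added as a check of the labels. The genes, lists and tests were chosen with earlier results of these data known. No sequences are shown.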

Additional observations from a re-analysis of the deposited data

Results flagged for a closer look

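LIN6, the cell wall invertase with reads in every library, had 18.3 CPM in CHI9 replicate 1, far above the 3.49 to 4.65 CPM of the other CHI9 libraries. The gap to the nearest library was 0.921 of the range of the group, over Dixon's 95% critical value for 4 samples. Of 44 groups of 4 libraries examined this was the 1 found, and chance alone passes about 1 in 20 such groups. The library held 710 LIN6 counts.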

How the results depend on the processing

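Of the 5 tested genes, 0 were called between genotypes except under library totals, where TIV1 made the count 1 with af set against both lines, against CHI4 and against CHI9. Between late and early times the count was 1 with no low-count filter, with DESeq2 and with limma-voom, and 0 to 1 without single libraries (1 without CHI4 replicate 1). Library totals, chosen after seeing the data, gave 7698 genes for af against both lines (6612 higher, 1086 lower, against 2358 and 2500 with TMM), 6563 against CHI4 (5701 and 862), 5526 against CHI9 (4582 and 944) and 284 between periods (58 and 226, against 119 and 59). For CHI9 against CHI4, 17 genes became 36 with sampling time as a replicate block, 92 with DESeq2 and 10 with limma-voom. Between periods, 178 became 759 with no filter, 656 with DESeq2 and 573 with limma-voom. For time 2 against 1, 16 became 199, 82 and 53, and for time 4 against 3, 222 became 640, 517 and 483, in the same order. The interaction gave 20 with no filter and 24 with DESeq2. Without single libraries the counts ran from 3593 to 5361 for af against both lines, 2724 to 4200 against CHI4, 2733 to 3918 against CHI9, 9 (without CHI4 replicate 1) to 16 between lines, 26 (CHI9 replicate 4) to 736 (CHI4 replicate 1) between periods, 6 (CHI9 replicate 2) to 31 (CHI9 replicate 1) for time 2 against 1, 78 (CHI4 replicate 4) to 340 (CHI9 replicate 1) for time 4 against 3 and 0 to 3 (af replicate 4) for the interaction. The cause was not tested.

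Signs of uncalled log2 differences turned as follows. Comparing af with both lines, SUS3 had 0.20 and LIN6 0.050 with library totals, and SUT1 had -0.16 with the block, -0.66 with limma-voom and -0.016 from lane 2 only. Without single libraries LIN6 ran from -0.77 to 0.077 (CHI9 replicate 1), SUS1 from -0.040 (af replicate 2) to 0.55 and SUT1 from -0.40 (af replicate 3) to 0.56. For CHI9 against CHI4, SUS1 had -0.024 with the block, -0.035 with limma-voom, -0.48 from lane 2 only and -0.056 when lane 2 stood in for both lanes of af replicate 4 and CHI4 replicate 4, LIN6 -0.053 with the block and SUT1 -0.018 from lane 1 only. Without single libraries SUS1 ran from -0.24 (CHI4 replicate 4) to 0.25, LIN6 from -0.71 (CHI9 replicate 1) to 0.47 and SUT1 from -0.088 (CHI9 replicate 3) to 0.64. Late against early, TIV1 had -0.082 with library totals and -0.047 (CHI4 replicate 1) to 0.14 without single libraries. With af compared to both lines, the block changed no call of the 5 genes or of the 7 other genes called. Counts of 12 to 118 for SUS1 and 5 to 71 for SUT1 limit their precision.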
